A study of Mus musculus with 4 samples.

Results

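Sensory neurons of the dorsal root ganglion (DRG) carry ion channels and receptors that turn heat, cold, touch and chemicals into electrical signals. The 8 genes examined here were Trpv1, Trpa1, Trpm8, Piezo2, P2rx3, Mrgprd, Asic1 and Asic3. They were taken as a named set of sensory transduction genes, with earlier results of these data known, and all 8 were found among the 33456 genes of the deposited count tables. TRPV1 opens on noxious heat, acid and capsaicin, TRPA1 on reactive irritants such as mustard oil, and TRPM8 on cooling and menthol. PIEZO2 is the mechanically gated channel of gentle touch and proprioception, P2X3 is opened by ATP, MRGPRD is a G protein coupled receptor for β-alanine, and ASIC1 and ASIC3 are acid-sensing sodium channels. Each is carried by some classes of sensory neuron and not by others, so the genes serve both as sensors and as marks of neuron class.

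Single-cell RNA-seq was done on L4 DRG of wild-type C57BL/6 mice aged 8 to 12 weeks. The study's methods name L4 and L5 ganglia and female mice. Control ganglia were uninjured and injury ganglia were taken 3 days after a sciatic nerve crush, with 2 libraries in each group (control 1, control 2, injury 1 and injury 2). Each batch pooled cells from 5 mice, so the p-values measure the spread between pools and not between animals. An injured ganglion holds neurons whose axon ran in the crushed nerve together with neurons whose axon did not. Ganglia were dissociated with enzymes and live cells were sorted, and transcripts were counted from their 3′ ends as unique molecular identifiers (UMIs), so levels are given per gene and are not compared between genes.

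The 4 libraries held 6975 cell barcodes, 1294 to 2509 in each, with 5585909 to 11210875 UMIs in each library. A cell was called a neuron when it held at least 8 of 13 neuron markers, none of which is among the genes examined. This gave 358 neurons, 27 in control 1, 198 in control 2, 39 in injury 1 and 94 in injury 2. Few cells lay near the limit, with 23 at 5 to 7 markers. The study's limits on UMIs, genes and mitochondrial share would keep 71 of these neurons, with 6.03% of the 8 genes' neuronal UMIs. Snap25, a gene of the synaptic release machinery, was at 753 CPM (counts per 1000000 UMIs) in neurons and at 21.7 CPM in the next highest type. It is among the 13 markers, so this follows from the gate. Of genes that the gate does not use, Scn9a was at 255 CPM in neurons and 12.7 CPM in its next highest type. Uchl1 was at 2565 and 66.8 CPM. Neurons were deep, with a median of 20607 UMIs. Between libraries, 20 barcode sequences were shared, none of them a neuron's. Satellite glial genes made up 11.6 CPM of the neuron sum in control 1 and 471 CPM in control 2. Of the 358 neurons, 29 also reached the minimum marker score of another type (mixed cells). Scn7a glia, a glial type described below, were left out of that check.

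Positions are given here for 7 of the genes. In GENCODE M21 on GRCm38, Trpa1 spans chr1:14872648-14918862 on the minus strand and Trpm8 spans chr1:88277661-88389293 on the plus strand, overlapping 4930453O03Rik on the other strand. P2rx3 spans chr2:84998583-85037462 on the minus strand and also overlaps a gene of the other strand, Ssrp1. Asic3 spans chr5:24413392-24417835, Mrgprd chr7:145314835-145324086, Trpv1 chr11:73234292-73261242 and Asic1 chr15:99670368-99701130, all on the plus strand, and no annotated gene overlaps any of these 4. RefSeq promoter windows of 300 bases, from 250 bases before the transcription start to 50 bases after it, were found for 5 of the 8 genes.

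The windows of Mrgprd, Trpm8 and Trpv1 are shown. Among neuron classes Mrgprd was counted in a single one, and Trpm8 and Trpv1 had their highest level in the same class. RUNX factors are known regulators of nociceptor identity, so the RUNX core letters TGTGGT were searched on both strands, and a match is in capitals. Of 32851 RefSeq windows of this length, 16.8% held a match. The Trpv1 window held 1, which starts 50 bases before the transcription start, and the other windows shown held none. Of the windows not shown, Asic3 held 1 match, 228 bases before the start, and Asic1 none. All are given 5′ to 3′ on the plus strand of GRCm38.p6.
Mrgprd, chr7:145314585-145314884: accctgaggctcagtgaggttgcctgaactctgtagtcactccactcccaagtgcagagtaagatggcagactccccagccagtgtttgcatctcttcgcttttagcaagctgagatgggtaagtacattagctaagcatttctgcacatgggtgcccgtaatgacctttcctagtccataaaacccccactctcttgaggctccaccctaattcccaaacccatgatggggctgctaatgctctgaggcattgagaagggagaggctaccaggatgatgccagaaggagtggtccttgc
Trpm8, chr1:88306485-88306784: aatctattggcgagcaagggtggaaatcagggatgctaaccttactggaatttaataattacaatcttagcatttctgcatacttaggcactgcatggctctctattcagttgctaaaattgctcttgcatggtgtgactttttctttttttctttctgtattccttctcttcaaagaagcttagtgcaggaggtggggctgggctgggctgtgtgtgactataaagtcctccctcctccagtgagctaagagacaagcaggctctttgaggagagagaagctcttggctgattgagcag
Trpv1, chr11:73233899-73234198: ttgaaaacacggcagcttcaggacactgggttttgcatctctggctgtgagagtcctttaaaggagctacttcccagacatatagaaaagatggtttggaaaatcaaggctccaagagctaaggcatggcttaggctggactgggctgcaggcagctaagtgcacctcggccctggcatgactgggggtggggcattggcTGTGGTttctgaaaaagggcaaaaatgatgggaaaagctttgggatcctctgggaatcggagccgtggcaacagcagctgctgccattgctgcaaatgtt

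Of the 4519 UMIs of the 8 genes, 92.2% were in neurons. At least 1 of the genes was counted in 335 of the 358 neurons (93.6%) and in 306 of the 6617 other cells (4.62%). For Trpv1 98.8% of 2115 UMIs were in neurons, for Trpa1 99.1% of 216, for Trpm8 99.2% of 133, for P2rx3 97.9% of 332, for Mrgprd 99.6% of 281, for Asic1 95.9% of 197 and for Asic3 96.0% of 201. Piezo2 stood apart, with 71.2% of its 1044 UMIs in neurons and 301 UMIs in 258 other cells. Trpv1 was counted in 235 neurons (65.6%), against 0.274% of satellite glia (4 of 1458 cells, median depth 4117 UMIs). Neurons are deeper than glia, and with every cell thinned to 1000 UMIs the shares were 18.7% and 0.0547%. The other shares of neurons with a UMI, unthinned, were 34.4% for Piezo2, 25.7% for Asic1, 19.6% for P2rx3, 16.8% for Trpa1, 16.5% for Trpm8, 10.3% for Asic3 and 4.75% for Mrgprd.

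Levels in neurons were compared with those in the other gated cell types on counts summed per library and type, 46 sums in all, with edgeR's quasi-likelihood test and Benjamini-Hochberg adjustment over all genes. A gene was called at an adjusted p under 0.05 and an absolute log2 fold change of 2 or more, the limits named in the study's methods. In this contrast 17.5% of 9951 genes were called higher in neurons. Trpv1 was higher by 7.64 on the log2 scale (SE 0.27, adjusted p = 9.26e-28) and Piezo2 by 4.74 (SE 0.28, adjusted p = 7.8e-19). P2rx3, Asic3, Mrgprd and Trpa1 were called higher too. Of the set, DESeq2 called only Trpv1 and Piezo2, where it called 1325 of 9951 genes higher. Trpm8 and Asic1 did not pass the filter on low counts. They were tested only without it, where both were called higher, as were 3727 of 19870 genes. A gene this low elsewhere passes the filter through its neurons, so these counts are a description, and folds against types at 0 UMIs depend on the fit.

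**Figure D1:**
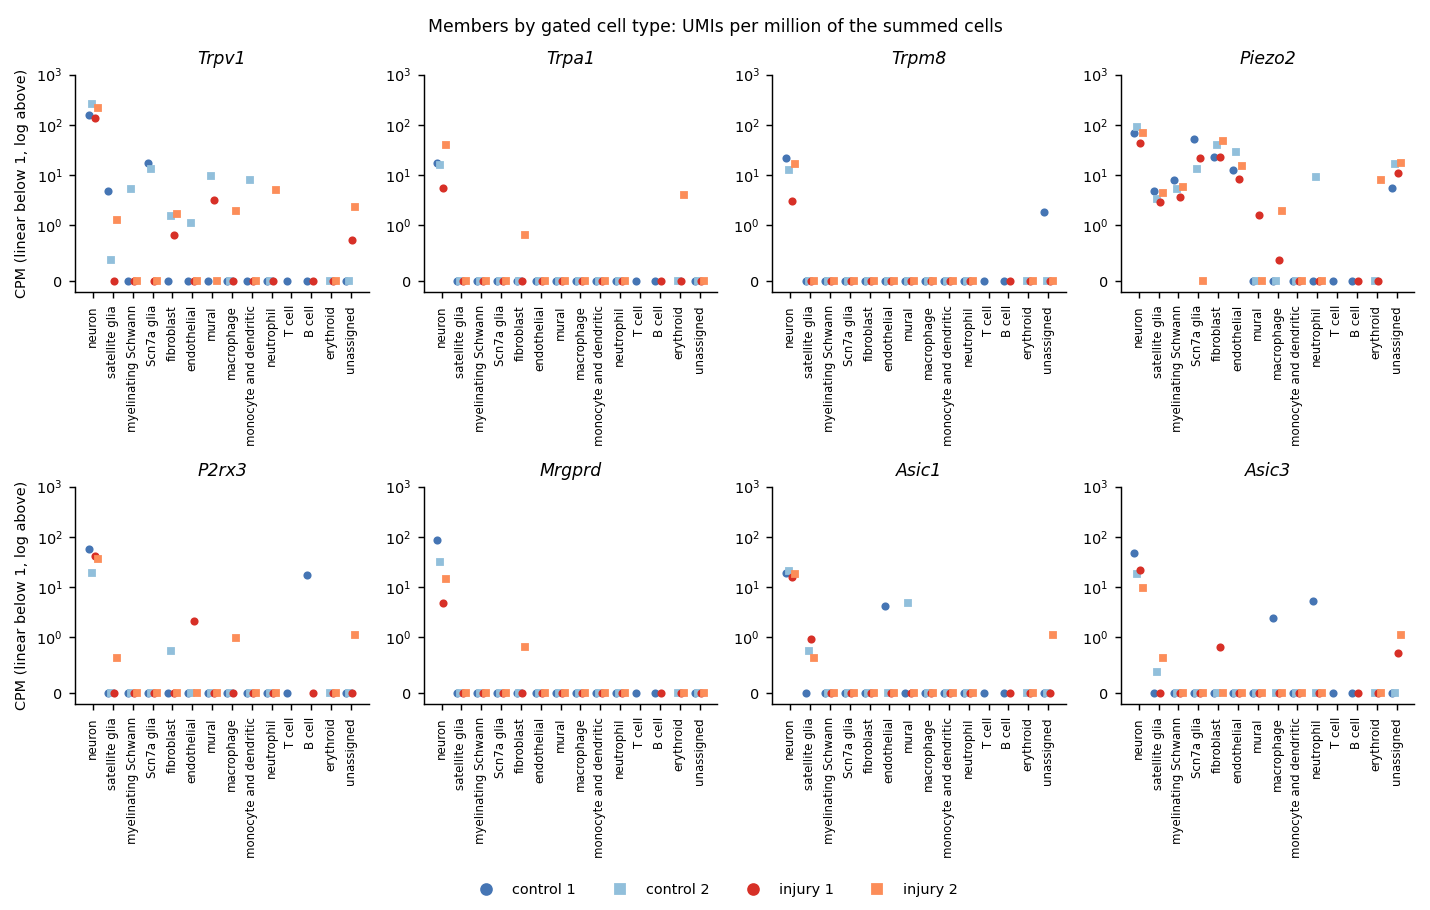
CPM of each gene in each gated cell type, 1 point per library and type with at least 10 cells; the axis is linear below 1 and logarithmic above. Piezo2 has points well above 1 CPM in fibroblasts, endothelial cells and glia, while the other 7 genes are at 0 in 282 of 322 such sums and above 5 CPM in 7 of them, which hold at most 2 UMIs each.

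In droplet data free RNA from lysed neurons can place neuronal UMIs in other cells. The neuron markers give a number to set beside the counts. If a type's marker UMIs were all free RNA, a gene's UMIs there would have the same ratio to them as in neurons. Whether they were was not tested. At that ratio 45.7 Trpv1 UMIs would fall in cells other than neurons, and 26 were counted (95% exact Poisson interval 17.0 to 38.1, counting error only). For P2rx3 7.11 would fall there and 7 were counted, and for Mrgprd 6.25 and 1. For Asic1 4.15 would fall there and 8 were counted (3.45 to 15.8), and for Asic3 4.33 and 8, so over all these cells neither stood above this number beyond counting error. Apart from Piezo2, 2 genes did within a single type. Asic1 in satellite glia had 5 UMIs against 1.31 (1.62 to 11.7), and P2rx3 in B cells had 2 against 0.0345 (0.242 to 7.22). Each gene was examined in every type, and the intervals were not adjusted for that number. For Piezo2 16.3 would fall there and 301 were counted (268 to 337). Piezo2 also stood above the number in satellite glia, at 23 UMIs against 5.32 (14.6 to 34.5). In myelinating Schwann cells it had 5 against 0.470 (1.62 to 11.7), and in cells without a type 52 against 2.61 (38.8 to 68.2).

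Piezo2 outside neurons was mostly in fibroblasts, the collagen-making cells of the ganglion's connective tissue. Fibroblasts held 158 of its UMIs, in 129 of 1057 cells (12.2%), against 2.14 at the neuronal ratio. The level in fibroblasts was 22.5 CPM in control 1, 40.0 in control 2, 22.4 in injury 1 and 46.7 in injury 2. All 4 libraries carried it, and the control and injury values overlapped. Endothelial cells held 42 UMIs in 35 of 456 cells (7.68%), against 1.57 at the neuronal ratio. Scn7a glia, cells marked by Scn7a, L1cam, Ngfr and Gfra3, held 14 UMIs, against 0.732.

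Over the libraries the order of Piezo2 levels was neurons at 68.9 ± 19.7 CPM (SD, n = 4), fibroblasts at 32.9 ± 12.4, Scn7a glia at 22.0 ± 22.3 and endothelial cells at 16.2 ± 8.77. Myelinating Schwann cells were at 5.70 ± 1.81 CPM and satellite glia at 3.87 ± 0.885. The ranges over libraries of fibroblasts, Scn7a glia and endothelial cells overlapped. Neurons were as low as 44.2 CPM (injury 1), below fibroblasts of injury 2 (46.7) and Scn7a glia of control 1 (52.5). Within each library neurons were above both types. Macrophages, at 0.589 ± 0.938 CPM, held 3 UMIs in 973 cells of about the depth of fibroblasts (medians of 4052 and 4101 UMIs). With cells thinned to 1000 UMIs, Piezo2 was counted in 5.67% of neurons, 3.28% of Scn7a glia (236 cells) and 3.13% of fibroblasts. At that depth it was in 1.71% of endothelial cells, 0.337% of satellite glia and 0.0549% of macrophages.

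After these values were seen, fibroblasts were set against the mean of the other types apart from neurons in the same fit. Since the contrast was chosen for what Piezo2 showed, its value is a description. Piezo2 was higher in fibroblasts by 4.08 on the log2 scale, in a contrast where 13.6% of 9951 genes were called higher. Leaving out each library in turn gave 3.87 to 4.39. The other 5 genes tested there lay between 0.41 and 1.18. Of the 129 fibroblasts with Piezo2, 7 (5.43%) also held a UMI of a gene restricted to neurons, against 61 of all 1057 fibroblasts (5.77%). In endothelial cells the same shares were 5 of 35 (14.3%) and 34 of 456 (7.46%), and in Scn7a glia 3 of 14 (21.4%) and 10 of 240 (4.17%). The differences between these shares were not tested, and the cells were not matched for depth.

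**Figure D2:**
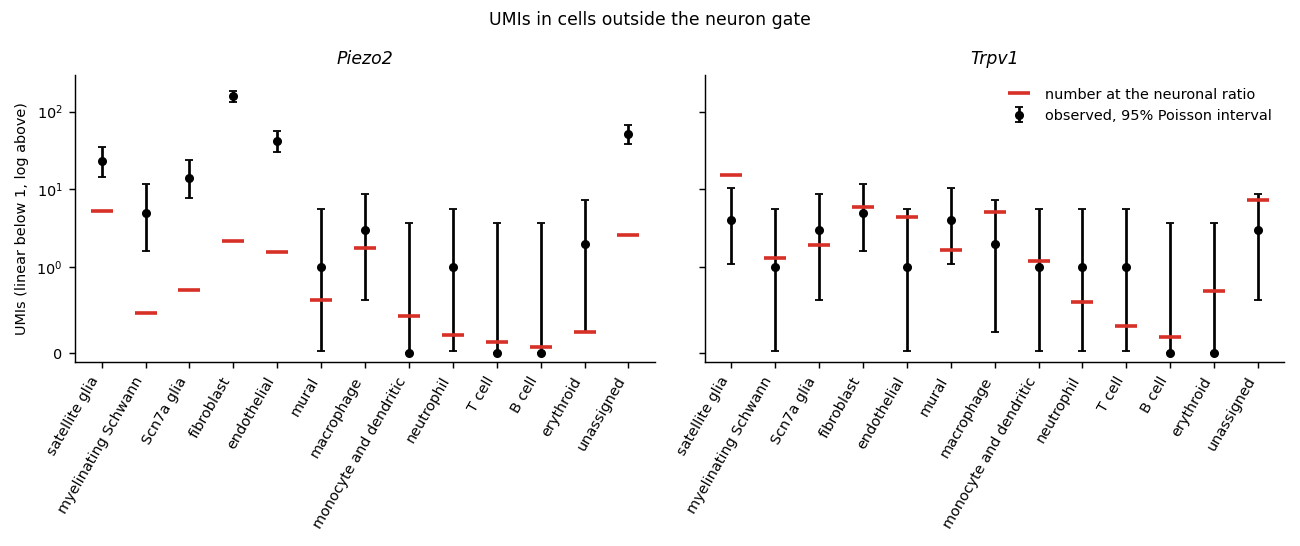
UMIs of Piezo2 and Trpv1 counted in each type other than neurons (points, 95% exact Poisson intervals) and the number at the ratio to neuron markers found in neurons (red bars); the axis is linear below 1 and logarithmic above. The fibroblast and endothelial points of Piezo2 lie far above their bars, and those of Trpv1 do not.

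Neurons were next divided into classes by marker genes other than the 8. The nonpeptidergic class was marked by Lpar3, Plxnc1, Gfra2 and Cd55 (24 neurons), the pruriceptor class by Mrgprx1, Il31ra, Osmr and Cysltr2 (18) and the peptidergic class by markers that included Calca, Calcb, Tac1 and Bmpr1b (88). C-fibre low-threshold mechanoreceptors (C-LTMR) were marked by Th, Fam19a4, Slc17a8, Zfp521 and Cdh9 (34). The neurofilament class was marked by Nefh, Pvalb, Ntrk3, Cntnap2, Necab2 and Calb1 (22). It was mixed, with Pvalb in 40.9% of its neurons, Trpv1 in 36.4% and Piezo2 in 36.4%, and is not read as a single kind of neuron. A class marked by Foxp2, Rxfp1 and Cdh8 (55) is named by these genes, because it mixed neurons with Trpm8 and neurons with Trpv1. No class was given to 117 neurons. Tests used 12 sums of library and class with at least 5 neurons, and each class was set against the mean of the other classes. In control 1 only the peptidergic class (12 neurons) had such a sum, and in injury 1 only the Foxp2/Rxfp1/Cdh8 class (7 neurons). With library as a block these sums say nothing on class, so the class tests rest on control 2 and injury 2. In that fit Mrgprd could not be estimated, since 5 of the classes held no UMI of it. edgeR called 12 pairs of gene and class. DESeq2 also called 3 of them, Trpv1 and Piezo2 in the Foxp2/Rxfp1/Cdh8 class and Piezo2 in C-LTMR. Of 8030 genes, DESeq2 called 38 higher and 29 lower in the Foxp2/Rxfp1/Cdh8 class, and 45 higher and 10 lower in C-LTMR. A fit with no library term lost some of the 12 and called other pairs, 1 of them in the pruriceptor class. With no library term edgeR called 10 pairs, where it called 66 to 209 of 8030 genes higher and 10 to 90 lower per class. Without injury 2 that fit called fewer pairs, with some classes left at a single sum.

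Mrgprd marked the nonpeptidergic class. It was counted in 13 of 24 nonpeptidergic neurons with 225 UMIs, and in none of the 217 neurons of the other classes. Against a floor of 3 UMIs over those 217 neurons, it was at least 350-fold higher. The level was 212 CPM in control 1 (3 neurons), 185 in control 2 (17 neurons), 109 in injury 1 (1 neuron) and 139 in injury 2 (3 neurons). In injury 2, 1 of the 3 neurons held all 13 Mrgprd UMIs. Another 55 UMIs were in 4 neurons without a class. Mrgprd neurons were deep, at a median of 70066 UMIs, and 10 neurons carried 86.1% of the UMIs.

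P2rx3 and Trpa1 were high in the same class. P2rx3 was at 114 CPM in nonpeptidergic neurons and 17.5 CPM in the other classes pooled, and was called higher there (log2 fold change 4.02, SE 0.58, edgeR adjusted p = 0.000144). Its next highest level was 60.8 CPM in the pruriceptor class, where it was not called (adjusted p = 0.0756). Trpa1 was at 46.2 CPM in nonpeptidergic neurons and 24.8 CPM in the other classes pooled (log2 fold change 4.68, SE 0.77, adjusted p = 0.000672). The fitted Trpa1 change exceeds the pooled ratio. Classes at 0 UMIs enter the mean of logs, and the pooled level includes 85 UMIs from peptidergic neurons of injury 2. The part of each was not tested. In this contrast 2.07% of 8030 genes were called in either direction. Only control 2 held at least 5 nonpeptidergic neurons, so the class enters the fit as 1 sum whose spread is taken from the other classes. DESeq2 called neither gene there (adjusted p = 0.555 for P2rx3 and 1 for Trpa1), and edgeR with no library term did not call Trpa1 (adjusted p = 0.416).

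The 17 Mrgprd neurons showed the set within single cells. Of these, 16 also held P2rx3 (94.1%), against 15.8% of the other neurons, 15 held Trpa1 (88.2%), against 13.2%, and 15 held Piezo2 (88.2%), against 31.7%. None held Trpm8, Asic1 or Asic3, which were in 17.3%, 27.0% and 10.9% of the others. The Mrgprd neurons were deeper than the rest, and the part of depth in the higher shares was not tested.

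**Figure D3:**
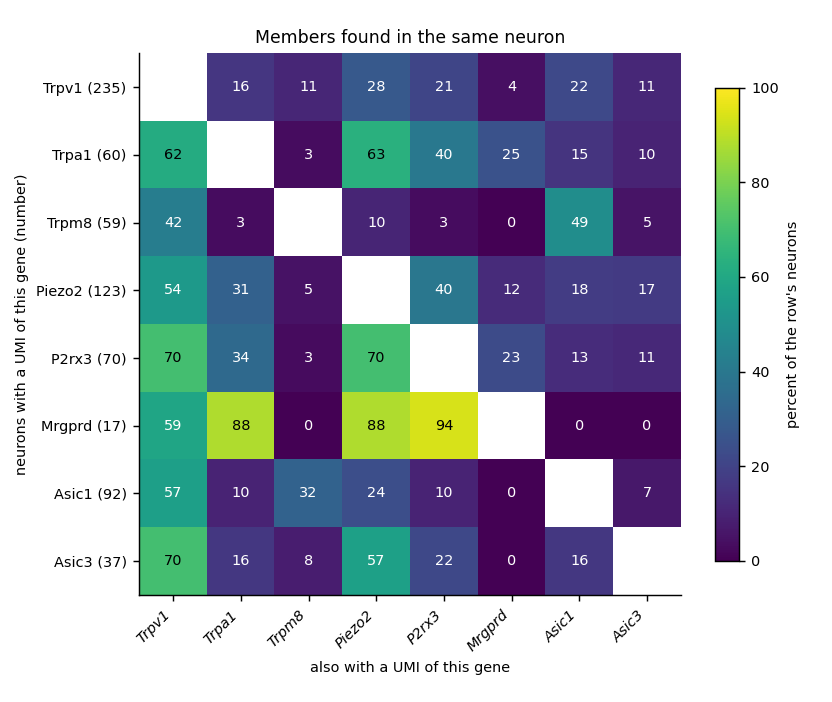
For the neurons with a UMI of the gene in each row (their number in parentheses), the percent that also held a UMI of the gene in each column. The Mrgprd row holds 94% with P2rx3 and 0% with Trpm8, Asic1 and Asic3.

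Trpa1 had a further peak in the peptidergic class, and this rested on 1 library. The peptidergic level was 7.21 CPM in control 1, 12.5 in control 2, 30.8 in injury 1 and 172 in injury 2. The last of these was 85 UMIs in 7 of 16 neurons. The class was called higher than the others (log2 fold change 2.90, SE 0.54, edgeR adjusted p = 0.000861), in a contrast where 3.65% of genes were called. DESeq2 did not call it (adjusted p = 0.337). Without injury 2, in a fit with no library term, the log2 fold change was 0.98 (SE 0.96, edgeR adjusted p = 0.604). C-LTMR held Trpa1 in 13 of 34 neurons (17.6 CPM), where it was not called. The neurofilament class held no UMI of Trpa1 in 22 neurons. Against a floor of 3 UMIs over those neurons it was at least 9.95-fold lower than the other classes pooled, which include the 85 UMIs of injury 2. It was called lower (edgeR adjusted p = 0.0094), in a contrast where 3.4% of genes were called. Trpa1 passed the filter on low counts through the other classes alone, so this call and its adjusted p are a description.

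Trpv1 was in nearly every peptidergic and pruriceptor neuron, 82 of 88 (93.2%) and 17 of 18 (94.4%). Its highest level was in another class, the Foxp2/Rxfp1/Cdh8 neurons, at 617 CPM against 148 CPM in the other classes pooled. It was called higher there (log2 fold change 2.59, SE 0.34, edgeR adjusted p = 4.8e-05), and was below the fold limit at 1.71 without injury 2 and with no library term (adjusted p = 0.0138). The level in this class was 294 CPM in control 1, 748 in control 2, 159 in injury 1 and 758 in injury 2. Peptidergic neurons were at 205 CPM, pruriceptors at 231, neurofilament neurons at 151, nonpeptidergic neurons at 80.1 and C-LTMR at 45.5. In some classes few neurons carried the level. A single neuron held 54 of 137 UMIs in the neurofilament class, 38 of 97 in the nonpeptidergic class and 31 of 44 in C-LTMR. Of 22 neurofilament neurons 8 held Trpv1. In the libraries with at least 5 of them the level was 292 CPM (control 2) and 17.3 CPM (injury 2).

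The high Trpv1 of this class sat mostly in the neurons with Rxfp1, the relaxin receptor. Within the class, 14 neurons with at least 3 Rxfp1 UMIs were at 1584 CPM, and 41 with fewer were at 145 CPM. Control 1 held none of the 14. This split by Rxfp1 was noticed after the values were seen and is given without a test. Over all neurons, with and without a class, 19 had at least 3 Rxfp1 UMIs. Their Trpv1 level was 1454 CPM, with a median of 32 UMIs per neuron and 18 of the 19 positive. All other neurons were at 155 CPM, with a median of 1 UMI. The libraries gave 1843 CPM (control 1, 2 neurons), 1820 (control 2, 10 neurons), 517 (injury 1, 2 neurons) and 1535 (injury 2, 5 neurons) in the Rxfp1 neurons, and 101 to 188 CPM in the others. No library overlapped between the sets. The Rxfp1 neurons held 1 Trpm8 UMI in all, and their median depth of 18381 UMIs was below that of the others.

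Within the Foxp2/Rxfp1/Cdh8 class, Trpm8 was mostly in the neurons with fewer Rxfp1 UMIs. In the whole class Trpm8 was at 42.8 CPM in 19 of 55 neurons, against 5.23 CPM in the other classes pooled (log2 fold change 3.65, SE 0.82, edgeR adjusted p = 0.00678). Fitted with no library term, its adjusted p was 0.0618 without control 2 and 0.165 without injury 2. With at least 3 Rxfp1 UMIs, 1 of 14 neurons of the class held Trpm8, and with fewer, 18 of 41 did. Neurons without a class held 61 of the 132 neuronal Trpm8 UMIs, in 23 neurons, against 40 UMIs in this class. Asic1 was at 48.1 CPM in the class and 12.5 CPM in the others (log2 fold change 2.29, SE 0.49, edgeR adjusted p = 0.00427), and was not called in those fits either (adjusted p = 0.142 and 0.0436, the latter at a log2 fold change of 1.74). Of the 59 neurons with Trpm8, 29 held Asic1 (49.2%), against 21.1% of those without Trpm8. Piezo2, at 3 UMIs in 55 neurons, was lower by a ratio of 31.1 (exact 95% interval 10.6 to 151, counting error only), and P2rx3, at 1 UMI, by 37.2 (6.61 to 1475). Both were called lower (edgeR adjusted p = 0.00107 and 0.0466), P2rx3 no longer with the stricter neuron gate (0.0605) or without mixed cells (0.0556), and 2.59% of genes were called in this contrast. Piezo2 and P2rx3 passed the filter on low counts through the other classes, so these calls and their adjusted p are a description.

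Piezo2 was highest in C-LTMR, neurons of the skin's hair follicles that respond to stroking. There 27 of 34 neurons held it (79.4%), at 232 CPM against 63.0 CPM in the other classes pooled. It was called higher (log2 fold change 3.18, SE 0.35, edgeR adjusted p = 2.16e-06), where 2.05% of genes were called. The level was 307 CPM in control 2 and 294 in injury 2, the 2 libraries with at least 5 C-LTMR, and 62.4 CPM in the 3 C-LTMR of injury 1 and 0 in the 1 of control 1. Nonpeptidergic neurons followed at 135 CPM (adjusted p = 0.0256, below the fold limit at 1.97) and neurofilament neurons at 107 CPM (adjusted p = 0.0185, below the fold limit at 1.54). Peptidergic neurons held 46.3 CPM, 64.9 in control 1 and 56.8 in control 2 but 10.3 in injury 1 and 12.1 in injury 2, a difference that was not tested.

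The acid sensors differed from each other. Asic1 was in the Foxp2/Rxfp1/Cdh8 class and at 32.0 CPM in neurofilament neurons (11 of 22), and Asic3 was at 37.6 CPM in peptidergic neurons (20 of 88) and at 0 UMIs in the 24 nonpeptidergic neurons. Neurons without a class held 37.0% of the neuronal Asic1 UMIs and 44.6% of those of Asic3. Of the 37 neurons with Asic3, 6 held Asic1. Asic3 rested on few cells, as 10 neurons held 81.3% of its UMIs. Its peptidergic level was 130 CPM in control 1, from 3 of 12 neurons, and 10.3 to 18.2 CPM in the other libraries. edgeR called Asic3 higher in the neurofilament class (log2 fold change 3.24, SE 0.87, adjusted p = 0.0171), although its pooled level there, 18.7 CPM, was below that of peptidergic neurons. The neurofilament UMIs were 17, all in 3 neurons of control 2, and without control 1 the call was lost (adjusted p = 0.0587). With no library term none of the 3 neurofilament calls was kept (Asic3 0.173, Trpa1 0.24, P2rx3 0.112). P2rx3, at 2 UMIs in neurofilament neurons, was lower there by a ratio of 17.9 (exact 95% interval 4.90 to 149, counting error only). It was called lower (edgeR adjusted p = 0.0461), a call lost with RLE scaling (0.0508) and with the stricter neuron gate (0.0509). It passed the filter on low counts through the other classes, so this call is a description too.

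**Figure D4:**
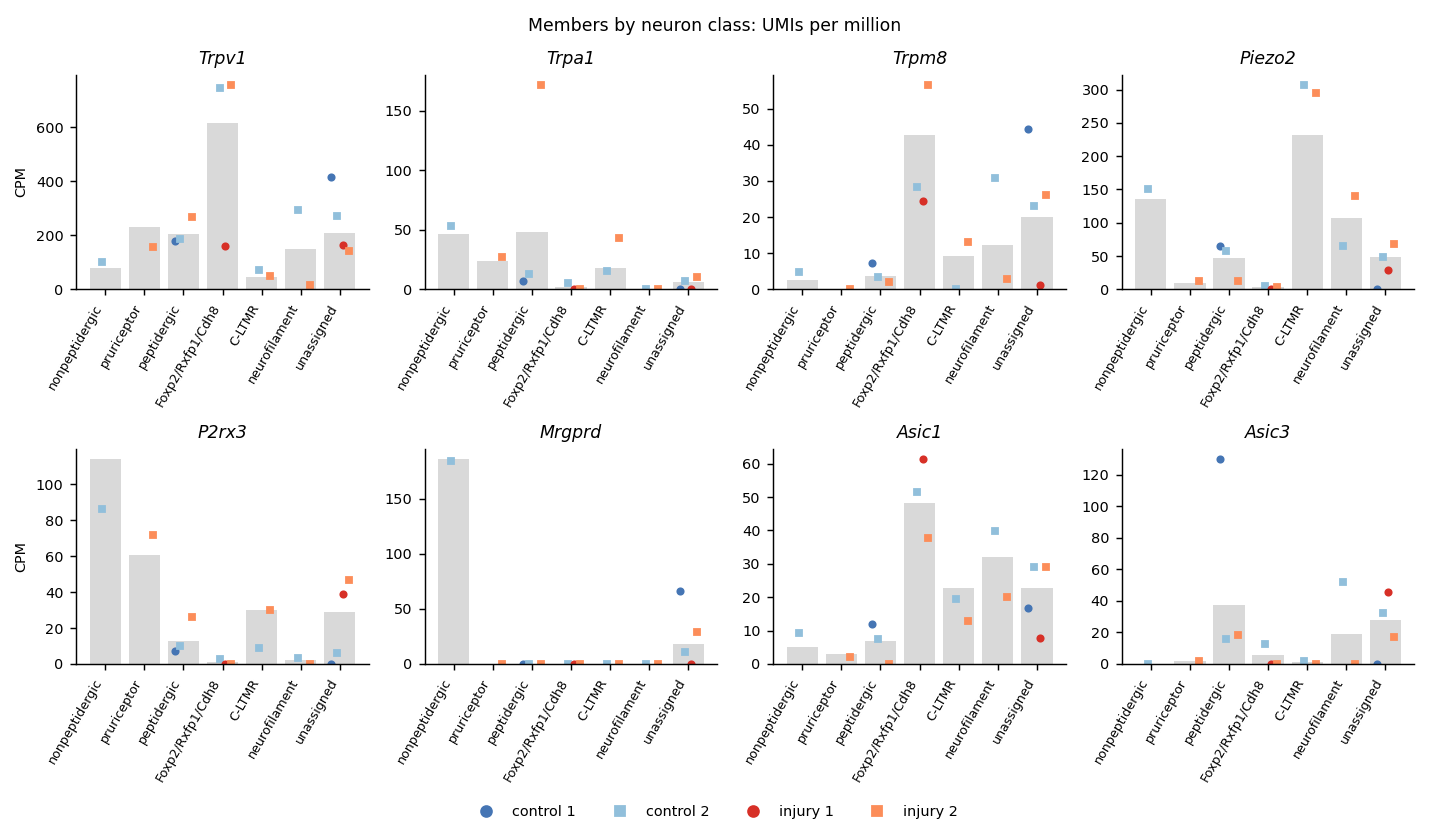
CPM of each gene in each neuron class; bars pool all neurons of a class over the libraries, and points are libraries with at least 5 neurons of the class. Mrgprd has a bar in the nonpeptidergic class and a lower one in neurons without a class, and Trpv1, Trpm8 and Asic1 have their highest bar in the Foxp2/Rxfp1/Cdh8 class.

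The pruriceptor class gave no call among the 8 genes, where 0.722% of genes were called. Only injury 2 held at least 5 pruriceptors, so this class also enters the fit as 1 sum. With no library term 1 of the 8 genes was called higher there, where 66 of 8030 genes were. Without the filter on low counts 1 of the 8 was called higher, where 90 of 16470 genes were. By a fixed rule, the genes most like each member were taken from the Pearson correlation of log2(CPM + 10) over the 12 sums, which share libraries and class, so the values are a description. Mrgprd was most like Agtr1a (r = 0.994), Otoa (0.989) and Fbp1 (0.982). Of the 12 sums, however, only the 17 nonpeptidergic neurons of control 2 held Mrgprd. Any gene confined to that sum would reach a high r, so these values do not show co-expression across sums. Trpm8 was most like Penk (0.954), the enkephalin precursor, Thsd7b (0.927) and Slitrk3 (0.927). The best partner of the others reached 0.926 for Trpv1 (Gpr75), 0.917 for Trpa1 (Nae1), 0.934 for Piezo2 (Smc4), 0.909 for P2rx3 (Scamp3), 0.925 for Asic1 (Syndig1) and 0.887 for Asic3 (Ccar2).

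The effect of nerve crush was then examined, first over all neurons of a library. Trpv1 was at 154 CPM in control 1, 254 in control 2, 136 in injury 1 and 213 in injury 2. Trpa1 was at 17.0, 15.9, 5.45 and 39.5 CPM in the same order, and Trpm8 at 21.5, 12.5, 3.03 and 17.0. Trpa1 had both its lowest and its highest library in the injury group. Piezo2 was at 68.9, 92.4, 44.2 and 70.1 CPM, P2rx3 at 58.2, 19.6, 41.1 and 36.5, Asic1 at 18.8, 21.3, 15.7 and 17.9 and Asic3 at 48.4, 18.1, 21.8 and 9.46. The control and injury libraries overlapped for 6 genes and did not overlap for Asic1 and Mrgprd. The share of all genes without overlap was not computed, so this count is a description. For Asic1 the fitted log2 fold change was −0.12 (SE 0.28). Mrgprd was at 87.8 CPM in control 1 and 31.5 in control 2, against 4.84 in injury 1 and 14.7 in injury 2.

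None of the 8 genes was called between injury and control in neurons, where edgeR called 0.047% of 10645 genes and 1039 had an unadjusted p under 0.05. Mrgprd had the largest change of the 8 (log2 fold change −2.36, SE 0.64, unadjusted p = 0.00836, adjusted p = 0.342). The other 7 lay between −0.91 and 0.64 on the log2 scale, with standard errors of 0.28 to 0.71. The median of the 8 was −0.24, against −0.02 over all genes. Mrgprd was the 1 member called under DESeq2 (adjusted p = 0.0168), which called 86 of 10645 genes higher and 4 lower. It was also the 1 member called without the filter on low counts (edgeR adjusted p = 6.6e-09). That fit called 193 of 17459 genes higher and 28 lower, with adjusted p down to 1.7e-131. The Mrgprd level rested on 4 neurons in control 1, 9 in control 2, 1 in injury 1 and 3 in injury 2. The share of nonpeptidergic neurons moved with it, from 3 of 27 and 17 of 198 to 1 of 39 and 3 of 94. Within nonpeptidergic neurons Mrgprd was at 109 to 212 CPM in every library, but each injury value rests on 1 neuron with 8 UMIs (injury 1) or 13 UMIs (injury 2). A lower number of such neurons and less Mrgprd in each cannot be told apart at these numbers.

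Over whole libraries edgeR called 0 genes of 14478 (0%), 291 had an unadjusted p under 0.05, and DESeq2 called 25 genes but none of the 8. Of the 8, 1 had an unadjusted p under 0.05, Asic3 (edgeR unadjusted p = 0.0335, adjusted p = 1), at 10.2 and 6.69 CPM in control and 3.40 and 3.27 in injury libraries. Trpv1 ranged from 20.5 CPM in injury 1 to 93.7 in control 2 and Piezo2 from 12.1 to 43.5 in the same libraries. The share of neurons in the cells ranged from 1.55% in injury 1 to 11.1% in control 2. In whole libraries fewer neurons and less RNA per neuron cannot be told apart.

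Inside the injured ganglia, neurons were divided by Sprr1a, a gene that axotomy induces in sensory neurons. At 3 or more UMIs, 22 of 39 neurons of injury 1 and 20 of 94 neurons of injury 2 were positive, and no control neuron was. The positive neurons held Atf3, a transcription factor of the axotomy response, at 1206 CPM, against 122 CPM in the negative ones. State was tested with library as a block on 4 sums, which leaves 1 residual degree of freedom per gene, and edgeR called 3.12% of 8083 genes in either direction. Of the 7 members tested, Trpa1 and Mrgprd were called, both lower in positive neurons. Both passed the filter on low counts through the negative neurons alone, so these calls and their adjusted p are a description.

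Trpa1 was at 14.0 CPM in the negative and 0 in the positive neurons of injury 1, and at 55.6 and 1.101 CPM in those of injury 2. The positive neurons held 1 UMI against 129 in the negative ones, lower by a ratio of 88.3 (exact 95% interval 15.6 to 3515, counting error only). Its edgeR adjusted p was 0.015 and its DESeq2 adjusted p 0.0108. Mrgprd was at 12.4 and 20.9 CPM in the negative neurons and at 0 in the positive neurons of both libraries. Its 53 UMIs in negative neurons against a floor of 3 UMIs over all positive neurons gave a level at least 12.1-fold lower (edgeR adjusted p = 0.0406), a call that DESeq2 did not make (adjusted p = 0.9). Neither gene overlapped between the states.

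The other genes were not called by state. Trpm8, which did not pass the filter, was at 6.21 and 23.7 CPM in negative and 0.991 and 1.101 CPM in positive neurons, 55 against 2 UMIs. It was called lower without the filter, where edgeR called 197 of 16346 genes higher and 300 lower. Asic1 was at 31.1 and 22.3 CPM in negative and 5.95 and 7.70 in positive neurons (log2 fold change −1.80, SE 0.46, edgeR adjusted p = 0.0816). P2rx3 went the other way, at 26.4 and 25.04 CPM in negative and 50.6 and 63.8 in positive neurons (log2 fold change 1.29, SE 0.28, adjusted p = 0.0543). The states did not overlap for Trpm8, Asic1, P2rx3 or Piezo2. For these, as for Trpa1 and Mrgprd, the lack of overlap is a description. Each state has 2 libraries, and the share of all genes without overlap was not computed. Piezo2 was at 73.0 and 75.6 CPM in negative and 25.8 and 57.2 in positive neurons. Trpv1 was at 127 and 264 against 142 and 91.4, and Asic3 at 4.66 and 12.98 against 32.7 and 1.101. The median log2 fold change of the 7 was −0.75, against 0.01 over all genes.

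The class of the neurons moved with their state. None of the 4 nonpeptidergic and 20 peptidergic neurons of the injury libraries was Sprr1a positive, against 6 of 14 pruriceptors, 5 of 15 C-LTMR, 4 of 9 neurofilament neurons and 4 of 23 Foxp2/Rxfp1/Cdh8 neurons. The other 23 of the 42 positive neurons had no class. A loss of class markers and a lack of such neurons among the positive ones cannot be told apart. Within the neurons without a class, Trpa1 was at 13.3 CPM in 25 negative and 0.888 in 23 positive neurons, Mrgprd at 42.6 and 0, Trpm8 at 37.3 and 1.78, Asic1 at 42.6 and 5.33, and P2rx3 at 17.3 and 61.3. The positive neurons were deeper, with medians of 33158 and 41230.5 UMIs in the 2 libraries against 31824 and 23233.5.

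**Figure D5:**
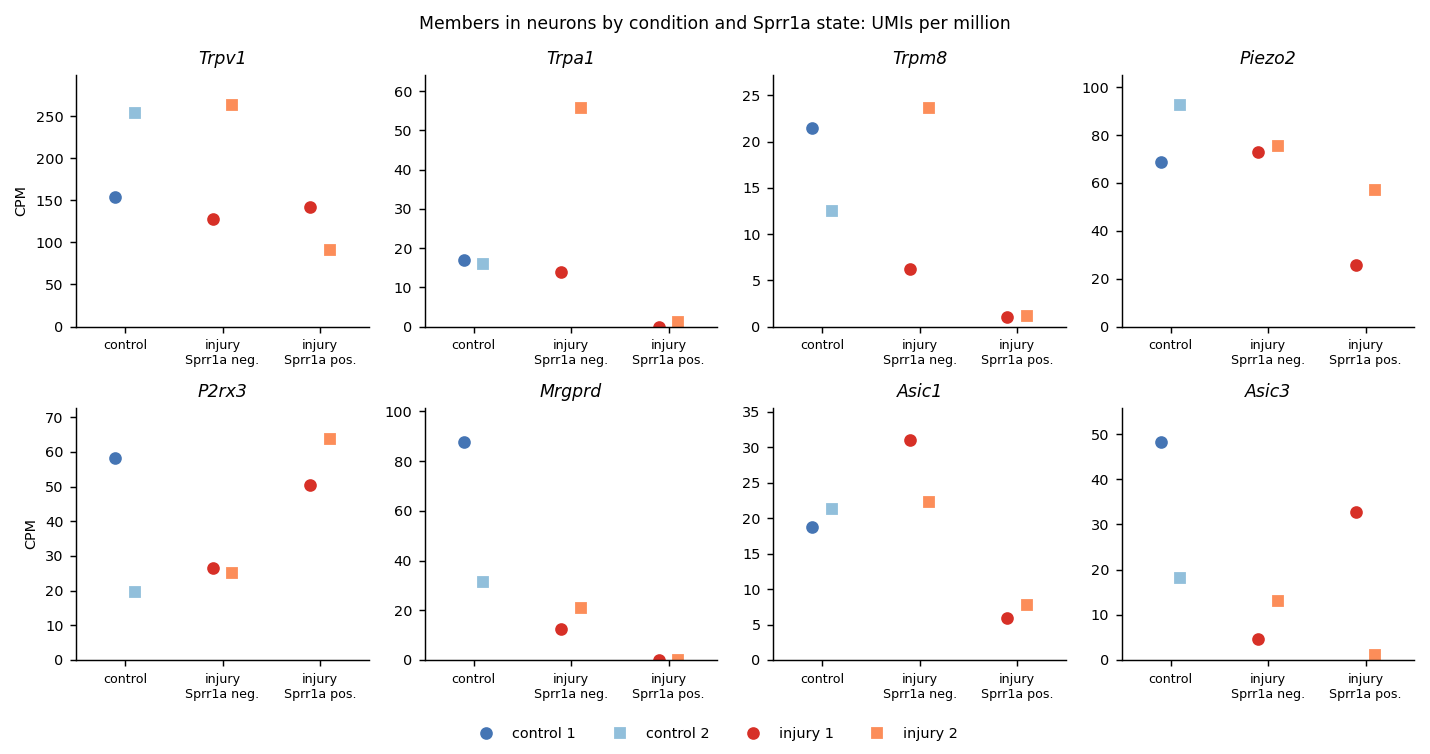
CPM of each gene in neurons, 1 point per library, for control neurons and for the Sprr1a negative and positive neurons of the injury libraries; all axes start at 0. Trpa1, Trpm8 and Mrgprd lie at or near 0 in the positive neurons of both libraries, and P2rx3 lies above its negative neurons in both.

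Related channels and receptors were taken from a list of 42 genes of the same families and functions. In neurons against other types 18 were tested and 10 called higher, where 17.5% of all genes were, among them Asic2, an acid-sensing subunit (log2 fold change 7.13, SE 0.41, edgeR adjusted p = 1.78e-15), and Htr3a, a serotonin-gated channel (6.13, SE 0.43). Between injury and control edgeR called none of 24 tested in neurons, where it called 0.047% of all genes. By state 1 of 14 tested was called, where 3.12% of all genes were. This was Kcnk2, a mechanically sensitive potassium channel, lower in Sprr1a positive neurons (log2 fold change −2.37, SE 0.28, adjusted p = 0.0139). By class, Htr3a was higher in pruriceptors (5.13, SE 0.51) and neurofilament neurons (3.19, SE 0.33) and lower in nonpeptidergic neurons (−3.34, SE 0.67) and C-LTMR (−2.54, SE 0.62). P2ry1, an ADP receptor, was called higher in C-LTMR and neurofilament neurons.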

How the data were processed

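The authors deposited UMI counts per gene and cell for each of 4 libraries made with droplet 3′ chemistry. Cell Ranger, Partek and the genome build mm10 are named in the submitters' processing notes. Deposited counts were used as they stand, with library totals of 5585909 to 11210875 UMIs. Cells were gated by marker genes that exclude the 8 genes, neurons at 8 or more of 13 markers. Doublets were not called, and 29 neurons that reached the minimum score of another type, Scn7a glia left out, were kept. Because cells are not replicates, the UMIs of all cells of a type (at least 10 cells), class or state (at least 5 cells) within a library were added up. Sums were tested with edgeR 4.0.16 (R 4.3.3, TMM scaling, filterByExpr, quasi-likelihood test) with Benjamini-Hochberg adjustment, called at an adjusted p under 0.05 and an absolute log2 fold change of 2 or more. DESeq2 1.42.0, RLE scaling, no filter on low counts, adjusted p alone, a stricter gate (11 markers), removal of mixed cells, the study's cell limits and each library left out in turn were alternatives. Thinning neurons to 3000 UMIs, a replicate block, class fits with no library term and the fibroblast contrast were chosen after seeing the data. Levels are CPM, counts per 1000000 UMIs. Limits of a count of 0 use 3 counts, and intervals are exact at 95% and cover counting error only. The named genes were the 8, a list of 42 related genes, and the 3 genes most like each by Pearson correlation of log2(CPM + 10), with an offset of 10 CPM, among genes with at least 50 UMIs in neurons. Values of some genes on these lists are not reported here. The genes and lists were chosen with earlier results of these data known. The tests were tested on simulated data. Summaries used Python 3.11.15 with numpy 2.4.6, scipy 1.17.1 and pandas 2.3.3.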

Additional observations from a re-analysis of the deposited data

How the results depend on the processing

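Over 34 fold changes and 333 alternatives, 284 kept their direction and their side of the threshold, 41 fell below it (14 of them under DESeq2), 2 rose past it (Mrgprd between injury and control) and 6 turned direction, all on leaving out 1 library, 5 of them in the comparison of injury with control. The number of the 8 genes called higher in neurons was 6, and became 2 under DESeq2, 1 of 2 tested within the study's cell limits and 3 of 3 tested with neurons thinned to 3000 UMIs. In that order these fits called 1325 of 9951, 1211 of 9441 and 1546 of 9778 genes higher. Between injury and control it was 0, and became 1 under DESeq2 and 1 without the filter on low counts. The number of gene and class pairs called was 12, and became 3 under DESeq2 and 1 with thinning, where 2 of the 8 genes were tested. The pair called with thinning was in C-LTMR, where 26 of 1621 genes were called higher and 1 lower. It was 11 without control 1 and 12 without injury 1. The library term absorbs the only class sum of each of these libraries, so these fits could hardly change the number. Control 2 and injury 2 could be left out only with no library term, a different model, which called fewer pairs without injury 2. By Sprr1a state the number of genes called was 2, and became 1 under DESeq2 and 0 of 1 tested with thinning. By state DESeq2 called 81 of 8083 genes higher and 83 lower. Injury against control, fitted without 1 library at a time, gave log2 fold changes from −1.37 to 1.36 for Trpa1, from −2.20 to 0.15 for Trpm8, from −0.49 to 1.18 for P2rx3, from −0.38 to 0.27 for Trpv1 (0.14 without injury 1) and from −3.35 to −1.44 for Mrgprd. Trpa1 turned negative without injury 2, Trpm8 positive without injury 1 and P2rx3 negative without control 2. The causes were not tested. Thinning leaves fewer genes to test, 3500 between injury and control with 2 of the 8 among them. Without control 2 and with no library term, Asic3 in the neurofilament class turned to −2.60, from sums that hold no UMI of it in that class. Class fits with a library term without control 2 or injury 2, which leave no residual degree of freedom, state fits without an injury library and the comparison of injury with control within the study's cell limits could not be fitted. The labels number only the second library of each group. Between these and the others, the differences of control and of injury correlated across genes at r = 0.17 in neurons (10645 genes) and 0.48 in whole libraries (14478 genes), and genes are not independent replicates. With a replicate block, a pairing chosen after seeing the data, 0 of the 8 genes were called in either comparison, while edgeR's calls over all genes in neurons went from 5 to 60 higher and 1 lower. Mrgprd was at −2.14 (adjusted p = 0.17). With 27 and 39 neurons in control 1 and injury 1, the depth of the injury comparison is limited, and single neurons held 83.3% of the Asic3 UMIs of injury 1 and 66.2% of the P2rx3 UMIs of control 1.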

Other observations

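Related genes were also read in the fibroblast contrast chosen after the Piezo2 values were seen. Of 18 related genes tested there, 4 were called higher in fibroblasts than in the mean of the other types apart from neurons and 1 lower, where 13.6% of all 9951 genes were called higher and 151 genes lower. Kcnk2 was higher by 4.82 on the log2 scale (SE 0.32, edgeR adjusted p = 8.97e-18), P2ry1 by 4.27 (SE 0.56), Trpc1 by 2.85 (SE 0.66) and Trpm3, a heat-activated channel, by 2.66 (SE 0.72). Trpv2 fell by 2.62 on the log2 scale (SE 0.53, edgeR adjusted p = 6.46e-05).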
